A study of Mus musculus with 6 samples.

Results

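Nuclear receptors are transcription factors that bind small lipid-soluble ligands, and this is a description of the nuclear receptor genes, Vdr among them, in hearts of hSRY-ON and hSRY-OFF mouse pups. The members were the genes whose symbol on the array named a numbered nuclear receptor (Nr1 to Nr6 and Nr0 families) or was Vdr, an Rar, an Rxr, an Ror, a Thr, an Esr or Pgr. PPAR and ERR genes were left out of the choice. The rule took subfamily letters a to h only, so receptors with an Nr1i symbol, the subfamily of Vdr itself, were not matched either. The rule found 37 genes with 64 probes among the 18138 genes and 25697 probes of the array. One of these genes, Nr2c2ap, encodes a protein that associates with a receptor, so 36 receptor genes with 63 probes were described. A probe was tested where it was above background (detection p under 0.05) on at least 3 of the 6 arrays, which held for 30 receptor probes of 20 receptor genes. A probe above background in a single group passes only through that group, so its direction is tied to this filter.

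The hearts came from male pups of the FVB strain (FVB/N in the methods) at postnatal day 6, 3 of the hSRY-ON and 3 of the hSRY-OFF group, and each was hybridized to a separate Illumina MouseRef-8 v2.0 BeadChip array. In hSRY-ON pups the Signalox-hSRY transgene, which holds FLAG-tagged human SRY and EGFP behind the ubiquitous CAG promoter in a single copy at the H11 locus, had been recombined in the fertilized egg by Cre protein from the oocyte of a Ddx4-Cre mother. Human SRY is the testis-determining transcription factor of the Y chromosome, and the comparison asks what its expression outside the gonad does to gene expression in each organ. hSRY-ON pups came from a single responder line, grew slowly and died young. The hSRY-ON pups used for arrays did not carry Ddx4-Cre themselves. The study's text differs on the controls: its methods define hSRY-OFF as unrecombined Signalox-hSRY, and its description of the crosses takes non-transgenic or Ddx4-Cre littermates as controls. All 6 pups were male and carried their own mouse Sry, whose probe was above background on no array, and the array has no probe named for the human transgene.

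Most nuclear receptors bind DNA at short repeated motifs, and many do so as a pair with a retinoid X receptor (RXR). The vitamin D receptor, the retinoic acid receptors, the thyroid hormone receptors, the liver X receptors and the bile acid receptor all share the RXRs as partners. In the heart, retinoic acid and thyroid hormone signals through these receptors are known for their roles in chamber formation and in the postnatal change of myosin and calcium-handling genes.

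The arrays detected 47.2% to 51.3% of all probes, and the hSRY-OFF replicate 3 array was the dimmest (mean intensity 631 against 723 to 939 on the others). Levels are given as normalized log2 intensities, in which 1 unit is a doubling. Correlations of these values over the tested probes were 0.983 to 0.992 between hSRY-OFF hearts, 0.985 to 0.988 between hSRY-ON hearts and 0.940 to 0.960 between groups. The cardiomyocyte genes Myh6 (levels of 14.40 to 15.11) and Actc1 (13.56 to 14.13) were bright in all 6 hearts, while Ryr2 was dimmer (5.12 to 6.93) and above background in 2 of 3 hSRY-ON hearts. Marker counts stand beside 28.8% of all tested genes called (14.9% up and 13.9% down), at an adjusted p under 0.05 on the brightest tested probe. Of the 5 cardiomyocyte markers on the array, Myh6, Tnni3 and Ryr2 fell and none rose. The summed intensity of the list was 84300 to 95720 in control and 78590 to 85800 in hSRY-ON hearts. Macrophage markers rose for 4 of 6 (Cd68, Lyz2, Cd163 and Mrc1), and their sum was 2809 to 3819 in hSRY-OFF against 6161 to 7107 in hSRY-ON hearts. Smooth muscle markers had 1 called increase among 5 tested (Acta2, the brightest of the list), with sums of 37900 to 43140 and 50930 to 54950. The list median was a log2 fold change of -0.42. Myh11 (-0.42), Rgs5 (-0.57), Pdgfrb (-0.43) and Des (0.10) were not called. Acta2 rose by 0.53 on its brightest probe and by 1.26, 1.45 and 1.48 on its further probes. Fibroblast markers had 1 called increase among 5 tested (Tcf21), with sums of 22440 to 25320 and 23630 to 24490. The brightest Dcn probe was not called (-0.30), but a further Dcn probe was called lower (-0.90, adjusted p = 0.0108). Endothelial markers had 2 decreases among 5 (Cdh5 and Tek), with sums of 18120 to 19640 and 15050 to 17200. None of 4 tested erythroid markers was called (sums of 5688 to 15130 and 4869 to 9494), and 1 of 2 tested T cell markers (Cd3g) fell (sums of 200.6 to 233.2 and 185.7 to 210.1). Among fat markers Ucp1 and Adipoq rose of 4 tested, with overlapping sums of 1918 to 2697 and 1156 to 3709. Cidea, another brown fat gene, was at 10.80, 10.95 and 11.00 in hSRY-OFF and 10.54, 8.94 and 10.11 in hSRY-ON hearts, below in each but not called (log2 difference -1.05, SE 0.37, adjusted p = 0.0691). The liver gene Ahsg rose while Alb was above background on no array, and the liver sums were 329.7 to 368.9 and 1215 to 2947.

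One library of each group stood apart in a marker of another tissue. Ucp1, the uncoupling protein of brown fat, had levels of 4.64, 5.03 and 8.88 in hSRY-OFF and 10.81, 8.80 and 9.94 in hSRY-ON hearts, so that hSRY-OFF replicate 3, also the dimmest array, lay among the hSRY-ON hearts and the groups overlapped. Scgb1a1, the secreted protein of airway club cells, had a level of 13.74 in hSRY-ON replicate 1, 6.52 in hSRY-OFF replicate 2 and 4.53 to 4.80 in the other 4 hearts. The other lung markers of that array were near background, with Sftpc at 4.83 and Sftpb at 5.88, and the lung list summed to 138.6 to 197.7 in control and 155.9 to 13860 in hSRY-ON hearts. For this reason the values of the called receptors are also given without hSRY-ON replicate 1 and without hSRY-OFF replicate 3. The part of these cell type markers in the receptor results was not tested, and in whole hearts fewer cells of a type and less RNA per cell cannot be told apart.

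Of the 31 tested probes found by the rule, 10 were called, that is, had an adjusted p under 0.05 in limma (Benjamini-Hochberg over all 12970 tested probes). This was 32.3% of the member probes, beside 27.5% of all tested probes (13.8% up and 13.7% down), so the receptors as a group were called about as often as other genes. The 10 probes belonged to 6 genes: Vdr, Nr1h3 and Nr1h4 rose, and Rarb, Rxrg and Nr1d2 fell. hSRY-ON and hSRY-OFF values did not overlap for 13 of the 31 probes (41.9%, beside 45.2% of all tested probes), above in 6 and below in 7. The median size of the log2 fold change was 0.33 over the tested receptor probes and 0.30 over all tested probes. A total of 7 receptor probes, all of Vdr, Rarb, Rxrg or Nr1d2, were called with a change of at least 2-fold. The 3 increases lay in the receptors for vitamin D, oxysterols and bile acids, and the 3 decreases in a retinoic acid receptor, an RXR and a REV-ERB. Without hSRY-OFF replicate 1 or 2, or without hSRY-ON replicate 1, the probes called up were the 3 of Vdr.

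**Figure D1:**
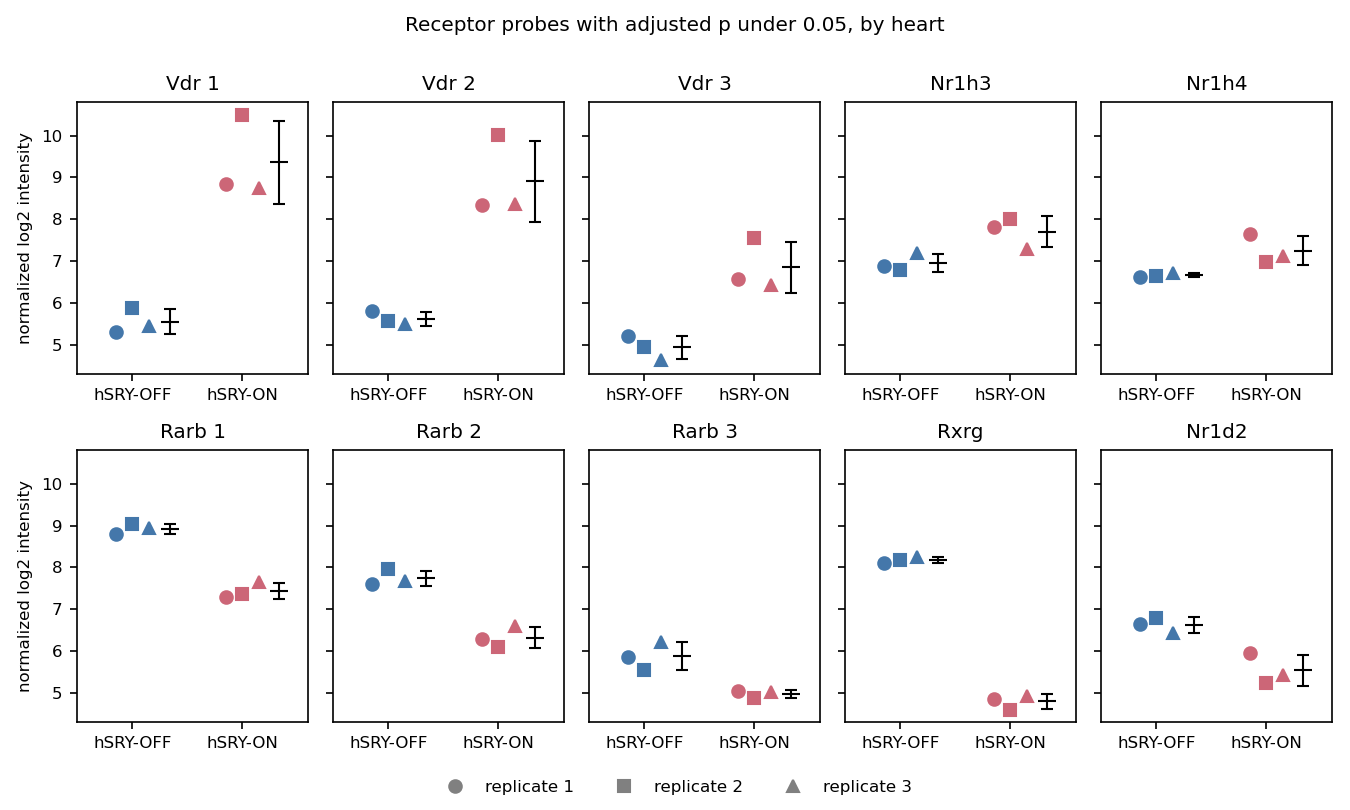
Normalized log2 intensity (y axis) of the 10 receptor probes with an adjusted p under 0.05, in each of the 3 hSRY-OFF (blue) and 3 hSRY-ON (red) hearts. Symbols mark the replicate number, the bar beside each group is the mean with its SD, and numbers after a gene name its probes from bright to dim. In each panel the groups are separate, and hSRY-ON replicate 2 is the highest heart for all 3 Vdr probes.

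Vdr had the largest fitted increase among the tested receptors. It encodes the receptor for 1,25-dihydroxyvitamin D, which controls calcium handling in gut, kidney and bone and is present at lower levels in many other tissues. The brightest Vdr probe (ILMN_2445166) had levels of 5.31, 5.89 and 5.46 in hSRY-OFF replicates 1 to 3 and 8.84, 10.50 and 8.74 in hSRY-ON replicates 1 to 3. The deposited intensities behind them were 186, 226 and 159 against 552, 1586 and 531. All hSRY-ON hearts were above all hSRY-OFF hearts, and among the hSRY-OFF hearts the probe was above background in only 1 of 3. The log2 fold change was 3.81 (SE 0.45, 3 against 3 hearts, adjusted p = 0.00111), or 14.0-fold.

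The other Vdr probes were also higher in hSRY-ON hearts. For ILMN_2445165 the levels were 5.80, 5.57 and 5.50 in hSRY-OFF and 8.34, 10.02 and 8.36 in hSRY-ON hearts, a log2 fold change of 3.28 (SE 0.42, adjusted p = 0.00159). ILMN_2864062 was dimmer, at 5.22, 4.96 and 4.65 in hSRY-OFF, where it was above background in none, and 6.57, 7.56 and 6.42 in hSRY-ON hearts. It passed the filter through the hSRY-ON hearts alone, so its direction adds no separate support. For this probe only a bound can be given, at least 2.68-fold higher in hSRY-ON hearts, with a fitted log2 difference of 1.91 (SE 0.30, adjusted p = 0.00365). A bound sets each undetected array at the higher of the probe's own level and the lowest level above background on that array. The groups were separate for each of the 3 probes, and hSRY-ON replicate 2 was highest in each.

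The Vdr increase kept its call without any one heart. Without hSRY-ON replicate 2 the log2 fold changes of the 3 probes, from bright to dim, were 3.23, 2.72 and 1.56, without hSRY-ON replicate 1 they were 4.07, 3.57 and 2.06, and without hSRY-OFF replicate 3 they were 3.79, 3.24 and 1.80. The size depended on the background correction: with none they were 2.14, 1.76 and 0.66, and with a normexp correction 2.78, 2.34 and 1.09, all still called. Among the macrophage markers, Cd68, Lyz2, Cd163 and Mrc1 were also higher in the same 3 hearts. Csf1r (log2 difference 0.40) and Adgre1 (-0.21) were not called on their brightest probes, and another Csf1r probe rose by 1.30 (adjusted p = 0.000886).

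The annotated Vdr promoter is shown because Vdr had the largest fitted increase. It runs from 250 bases before to 50 bases after the transcription start on the minus strand of chr15:97908247-97908546 (GRCm38.p6, sequence from RefSeq). None of the motifs searched (listed below with their shares over all promoters) was found in it, so it is printed without capitals.
Vdr promoter: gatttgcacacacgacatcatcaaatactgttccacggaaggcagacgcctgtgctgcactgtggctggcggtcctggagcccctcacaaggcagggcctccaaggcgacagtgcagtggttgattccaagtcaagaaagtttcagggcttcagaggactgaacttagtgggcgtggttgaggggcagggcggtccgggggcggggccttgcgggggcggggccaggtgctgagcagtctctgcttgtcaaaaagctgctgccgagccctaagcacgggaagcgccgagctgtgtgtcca

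The vitamin D list, of enzymes that make or break down vitamin D and genes known to respond to its receptor, gave 1 increase and 1 decrease among 7 tested genes of 17 on the array. The median log2 fold change over the 7 was 0.19, beside 0.0026 over all 9660 tested genes, of which 28.8% were called (14.9% up and 13.9% down, brightest tested probe of each gene). Cyp27a1, a mitochondrial sterol hydroxylase that can hydroxylate vitamin D and bile acid precursors, rose from a mean level of 8.87 ± 0.19 to 9.84 ± 0.16 (SD, 3 hearts each; log2 fold change 0.96, SE 0.15, adjusted p = 0.00319). A further Cyp27a1 probe rose by 1.08, and another differed by 0.55 without passing (adjusted p = 0.0651). Tnfrsf11b, which encodes the decoy receptor osteoprotegerin, had levels of 7.90, 7.95 and 8.35 in hSRY-OFF and 6.64, 5.29 and 6.11 in hSRY-ON hearts and fell by 2.05 on the log2 scale (SE 0.32, adjusted p = 0.0034). Cyp24a1, the vitamin D 24-hydroxylase and the classical target of Vdr, was above background only on 1 hSRY-OFF array, with levels of 5.21, 5.56 and 4.99 against 5.04, 5.08 and 4.86 in hSRY-ON hearts. Cyp27b1, which makes the active hormone, was above background on no array. Spp1 (osteopontin) was detected only in 2 of the hSRY-ON hearts and was not tested, with levels of 4.53 to 4.58 in control hearts and 5.02, 6.71 and 5.53 in hSRY-ON hearts.

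Nr1h3 and Nr1h4, the other receptors that rose, had smaller changes. Nr1h3 (liver X receptor alpha) binds oxysterols and controls cholesterol export genes. Its detected probe had levels of 6.89, 6.80 and 7.20 in hSRY-OFF and 7.81, 8.02 and 7.29 in hSRY-ON hearts. The groups were separate, but hSRY-ON replicate 3 lay within 0.1 of hSRY-OFF replicate 3. The log2 fold change was 0.75 (SE 0.21, adjusted p = 0.0339), and 16.1% of tested probes had a larger fitted change. This call was lost without hSRY-OFF replicate 1 or 2 (adjusted p = 0.103 for each), without hSRY-ON replicate 1 (0.70, adjusted p = 0.0985) and without hSRY-ON replicate 2 (0.59, adjusted p = 0.0934) but not without hSRY-OFF replicate 3 (0.87, adjusted p = 0.0323), and it was lost with no normalization (adjusted p = 0.166) and with no probe filter (adjusted p = 0.057). With no background correction the difference was 0.41, still called. A further Nr1h3 probe was above background on no array.

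Nr1h4 (farnesoid X receptor) is the bile acid receptor of liver and gut. Its probe had levels of 6.62, 6.66 and 6.72 in hSRY-OFF and 7.65, 6.98 and 7.13 in hSRY-ON hearts, with no overlap. The log2 fold change of 0.59 (SE 0.18) was just past the threshold (adjusted p = 0.0474). The highest hSRY-ON heart was replicate 1, the one with Scgb1a1, and without it the difference was 0.39 (adjusted p = 0.101). The call was also lost without hSRY-OFF replicate 1 (adjusted p = 0.133), 2 (adjusted p = 0.112) or 3 (0.62, adjusted p = 0.0729) and without hSRY-ON replicate 3 (adjusted p = 0.0705), with no background correction (0.29, adjusted p = 0.0622), with no normalization (adjusted p = 0.358) and with no probe filter (adjusted p = 0.0744). Nr1h2 (liver X receptor beta), with probes at differences of -0.03 (SE 0.12, adjusted p = 0.869) and 0.11 (SE 0.16, adjusted p = 0.64), did not pass, and no probe of Nr1h5 was above background on any array.

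Genes that liver X and bile acid receptors are known to act on gave 1 increase and 2 decreases among 6 tested of 11 on the array. Their median log2 fold change was 0.31, and 28.8% of all tested genes were called. Apoe, the lipoprotein ligand secreted by macrophages and liver, rose by 0.99 (SE 0.15, adjusted p = 0.00264). Pltp, the phospholipid transfer protein, fell by 0.69 on the log2 scale (SE 0.16, adjusted p = 0.0148). Srebf1, which drives fatty acid synthesis, was above background in no hSRY-ON heart and was at least 1.28-fold lower there (adjusted p = 0.0327). The Srebf1 call was lost without hSRY-OFF replicate 1 (adjusted p = 0.106) or hSRY-ON replicate 1, 2 or 3 (adjusted p = 0.0708, 0.0931 and 0.0656), and under 6 of the settings given in the closing section. The cholesterol exporter Abcg1 had levels of 4.98, 5.35 and 5.13 in hSRY-OFF and 5.55, 6.96 and 5.41 in hSRY-ON hearts (log2 difference 0.82, SE 0.38, adjusted p = 0.152), highest in hSRY-ON replicate 2 as for Vdr. Abca1, Abcb11, Fgf15 and Cyp7a1 were above background on no array.

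Among the retinoic acid receptors, Rarb fell and Rara and Rarg did not pass the test. Rarb encodes retinoic acid receptor beta, whose own gene is a classical target of retinoic acid. The brightest Rarb probe (ILMN_2886828) had levels of 8.80, 9.04 and 8.93 in hSRY-OFF and 7.29, 7.37 and 7.65 in hSRY-ON hearts. Each hSRY-ON heart was more than 1 log2 unit below each hSRY-OFF heart, and the spread within a group was small (SD 0.12 and 0.19). The gene fell by 1.49 on the log2 scale (SE 0.14, adjusted p = 0.000523), 2.81-fold, and 3.55% of tested probes had a larger fitted change.

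The further Rarb probes were also lower in hSRY-ON hearts. ILMN_2617194 was at 7.60, 7.95 and 7.67 in hSRY-OFF and 6.29, 6.09 and 6.60 in hSRY-ON hearts, a decrease by 1.41 (SE 0.17, adjusted p = 0.00124). ILMN_1246864 was at 5.86, 5.56 and 6.22 in hSRY-OFF and 5.04, 4.88 and 5.04 in hSRY-ON hearts, where it was above background in none, so it was at least 1.47-fold lower (adjusted p = 0.00908). It passed the filter through the hSRY-OFF hearts alone, so its direction adds no separate support. Without hSRY-ON replicate 1 the log2 fold changes of the 3 probes were -1.42, -1.39 and -0.93, and without hSRY-OFF replicate 3 they were -1.49, -1.45 and -0.75, all called. With no background correction they were -1.01, -0.69 and -0.26, still called.

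The Rarb promoter (chr14:16575427-16575726, minus strand, GRCm38.p6, RefSeq) is shown because it holds a direct repeat, the arrangement that retinoic acid receptors bind with an RXR. The capitals mark that repeat, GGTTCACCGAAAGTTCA, at 53 to 37 bases before the transcription start, and ATTGTT, the SRY motif AACAAT read on the other strand.
Rarb promoter: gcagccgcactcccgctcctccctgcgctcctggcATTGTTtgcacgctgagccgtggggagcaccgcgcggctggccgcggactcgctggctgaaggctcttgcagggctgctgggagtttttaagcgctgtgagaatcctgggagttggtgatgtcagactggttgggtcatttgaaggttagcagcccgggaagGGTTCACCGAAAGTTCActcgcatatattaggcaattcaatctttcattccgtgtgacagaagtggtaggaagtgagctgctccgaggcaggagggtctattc
Direct repeats were searched on both strands as pairs of core motifs in the same orientation, the core motif being AGGTCA, its variant AGTTCA, the variant GGGTCA or the variant GGTTCA. With 5 bases between them, such a repeat was found in 0.0974% of all 32851 annotated promoters and in 1 of the 46 promoters of member genes, that of Rarb. With 1 to 4 bases between, it was found in none of the 46.

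Rara, the widely expressed retinoic acid receptor, had levels of 6.08, 5.34 and 6.12 in hSRY-OFF and 6.37, 6.56 and 5.98 in hSRY-ON hearts, which overlapped (log2 difference 0.46, SE 0.25, adjusted p = 0.207). The 3 tested Rarg probes differed by -0.27 (SE 0.19), 0.16 (SE 0.21) and -0.22 (SE 0.22) and did not pass. Thra, the main thyroid hormone receptor of the heart, had a bright probe at 10.05, 10.05 and 10.19 in hSRY-OFF and 10.17, 10.19 and 10.24 in hSRY-ON hearts. Its difference of 0.10 (SE 0.11, adjusted p = 0.533) did not pass. A dimmer Thra probe differed by -0.47 (SE 0.19, adjusted p = 0.107), so the Thra probes were not alike in sign and neither was called. Thrb was above background on no array.

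The retinoid list held genes for retinol transport, retinoic acid synthesis and breakdown and classical targets. Of its 20 genes on the array 8 were tested, and 4 rose and 3 fell, with a median log2 fold change of 0.50. Over all tested genes, 14.9% rose and 13.9% fell. Adh1, an alcohol dehydrogenase that can oxidize retinol, rose by 1.43 (SE 0.23, adjusted p = 0.00418). Tgm2, a transglutaminase induced by retinoic acid in many cells, rose by 1.03 (SE 0.13, adjusted p = 0.00145).

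The retinaldehyde dehydrogenases, which make retinoic acid, went in opposite directions. Aldh1a1 was at 4.54, 4.97 and 4.75 in hSRY-OFF, where it was above background in none, and 7.78, 6.71 and 6.35 in hSRY-ON hearts, at least 2.86-fold higher (adjusted p = 0.00331). Aldh1a2 was at 8.40, 8.30 and 8.40 in hSRY-OFF and 6.66, 6.72 and 7.58 in hSRY-ON hearts and fell by 1.38 (SE 0.24, adjusted p = 0.00543), with a decrease by 1.02 on its other probe. Aldh1a3 was above background on no array. Fabp5, a carrier of fatty and retinoic acids, fell by 0.87 (adjusted p = 0.0181), and Retsat, the retinol saturase, by 0.42 (adjusted p = 0.0331). The Fabp5 call was lost without hSRY-OFF replicate 1 or 2 (adjusted p = 0.0682 and 0.0626) or hSRY-ON replicate 1 or 3 (adjusted p = 0.0532 and 0.0524). The Retsat call was lost without any of the hearts but hSRY-ON replicate 3, with adjusted p of 0.0902, 0.0915 and 0.0586 without hSRY-OFF replicates 1 to 3 and 0.116 and 0.0658 without hSRY-ON replicates 1 and 2. The retinoic acid hydroxylases Cyp26a1 and Cyp26b1 were each above background on 1 array only.

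The thyroid hormone list had 3 increases and 3 decreases among 12 tested genes of 16 on the array, with a median of 0.10. The share called over all tested genes was 28.8%. Myh7, the slow myosin heavy chain that thyroid hormone represses in the rodent heart, was at 10.46, 10.02 and 10.08 in hSRY-OFF and 12.86, 13.39 and 13.14 in hSRY-ON hearts and rose by 2.94 (SE 0.18, adjusted p = 8.25e-05). Hcn2, a pacemaker channel, fell by 2.80 (SE 0.26, adjusted p = 0.00047), and Pln, the inhibitor of the calcium pump, by 1.47 (SE 0.29, adjusted p = 0.00908). Myh6, the fast myosin heavy chain, fell by 0.51 on its brightest probe (adjusted p = 0.0185) and by 1.97 on its other probe. The call of the brightest probe was lost without hSRY-OFF replicate 1 or 2 (adjusted p = 0.064 and 0.0525) or hSRY-ON replicate 1 or 2 (adjusted p = 0.0523 and 0.0649). Ttr, the plasma carrier of thyroid hormone and retinol, was above background in no hSRY-OFF heart and was at least 3.87-fold higher in hSRY-ON hearts (adjusted p = 0.000378). Hr, the nuclear corepressor hairless, rose by 0.81 (adjusted p = 0.0334), a call that was kept when hSRY-ON replicate 3 was the heart left out but lost without each other heart, with adjusted p of 0.107, 0.0644 and 0.0648 without hSRY-OFF replicates 1 to 3 and 0.0513 and 0.0561 without hSRY-ON replicates 1 and 2. The deiodinases Dio1, Dio2 and Dio3, which activate or inactivate the hormone, were above background on no array.

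Of the RXRs, the shared partners, Rxrg fell and Rxra and Rxrb did not pass. Rxrg encodes RXR gamma, known from striated muscle and parts of the brain. Its probe was at 8.10, 8.19 and 8.25 in hSRY-OFF and 4.87, 4.61 and 4.93 in hSRY-ON hearts, where it was above background in none. The deposited intensities were 468, 519 and 347 against 154, 144 and 154. The groups were far apart, with an SD of 0.07 in hSRY-OFF hearts. The SD of 0.17 in hSRY-ON hearts is that of background values and does not measure how Rxrg varied between them. The SE, adjusted p and ranges of the fitted difference below rest partly on these background values. The probe passed the filter through the hSRY-OFF hearts alone. Rxrg was at least 7.22-fold lower in hSRY-ON hearts, with a fitted log2 difference of -3.38 (SE 0.13, adjusted p = 2.49e-05). Without hSRY-ON replicate 1 the value was -3.43 (adjusted p = 0.000171), without hSRY-OFF replicate 3 it was -3.40, and leaving out each heart in turn gave -3.44 to -3.28. With no background correction the fitted difference was -1.45 and with a normexp correction -2.16, both still called.

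The sarcomeric actin gene Acta1, placed in the skeletal muscle list, fell by 3.25 on the log2 scale. Its levels were 12.14, 11.61 and 11.45 in hSRY-OFF and 8.96, 7.93 and 8.56 in hSRY-ON hearts. The other 5 genes of that list, Myod1 and the fast myosins Myh1 and Myh4 among them, were above background on no array. The list sum, 2944 to 4669 in control and 376 to 630.8 in hSRY-ON hearts, thus rests on Acta1. Which cells held its transcript was not tested. Rxra had levels of 6.10, 6.36 and 6.36 in hSRY-OFF and 6.23, 5.74 and 6.29 in hSRY-ON hearts (log2 difference -0.19, SE 0.18, adjusted p = 0.467). The bright Rxrb probe ranged from 10.51 to 10.73 in control hearts and from 10.18 to 10.58 in hSRY-ON hearts (difference -0.21, SE 0.15, adjusted p = 0.349). The dimmer one had separate groups, 8.07 to 8.23 above 7.80 to 7.94, at a difference of -0.28 (SE 0.12, adjusted p = 0.115).

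RefSeq lists 2 promoters for Rxrg, of which the one at chr1:167618015-167618314 (plus strand, GRCm38.p6) is shown, since it holds an AGGTCA, in capitals, the core motif of the receptors themselves.
Rxrg promoter: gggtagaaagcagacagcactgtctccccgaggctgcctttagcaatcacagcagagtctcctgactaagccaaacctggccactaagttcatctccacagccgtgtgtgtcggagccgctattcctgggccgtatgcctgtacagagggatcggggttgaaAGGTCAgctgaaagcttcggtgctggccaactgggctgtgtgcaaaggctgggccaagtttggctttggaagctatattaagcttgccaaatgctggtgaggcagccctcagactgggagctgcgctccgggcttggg
AGGTCA, on either strand, was found in 16.3% of all promoters and in 10 of the 46 member promoters (21.7%). The other promoter of Rxrg held none of the motifs.

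Nr1d2 fell, and Nr1d1 and Rora, of the same clock loop, did not pass the test. Nr1d2 (REV-ERB beta) is a haem-binding repressor that shares DNA motifs with the activating RORs. Its detected probe was at 6.66, 6.80 and 6.43 in hSRY-OFF and 5.96, 5.24 and 5.43 in hSRY-ON hearts, with no overlap. It fell by 1.09 on the log2 scale (SE 0.20, adjusted p = 0.00722), by 1.30 without hSRY-ON replicate 1 and by 1.21 without hSRY-OFF replicate 3. In hSRY-ON hearts the probe was above background in 2 of 3, and with no background correction the difference was -0.36 and with a normexp correction -0.59, both called. Nr1d1 (REV-ERB alpha), whose levels were 6.77, 6.77 and 7.16 in hSRY-OFF and 6.48, 7.26 and 7.67 in hSRY-ON hearts, differed by 0.24 (SE 0.29, adjusted p = 0.582). The hSRY-ON hearts were the more spread of the groups for this gene (SD 0.61 against 0.23).

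Rora (ROR alpha) had separate groups, at 8.19, 8.30 and 8.09 in hSRY-OFF and 8.35, 8.76 and 8.35 in hSRY-ON hearts, but the difference of 0.30 (SE 0.15, adjusted p = 0.188) did not pass. A further Rora probe was above background only in 2 hSRY-ON hearts, and Rorb on 1 array.

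The clock list of the REV-ERB and ROR loop had 2 increases and no decrease among 11 tested genes of 14 on the array, with a median of 0.14. Over all tested genes, 14.9% were called up and 13.9% down. Per2 rose by 1.53 (SE 0.14, adjusted p = 0.000493), from 8.36, 8.59 and 8.79 to 10.12, 10.19 and 10.03. Per1 rose by 1.51 (SE 0.27, adjusted p = 0.00636), from 8.02, 8.83 and 8.88 to 9.79, 10.49 and 9.97. Both are light- and hormone-responsive period genes. Clock (-0.01, SE 0.12), Arntl (0.10, SE 0.21) and Dbp (-0.31, SE 0.21) did not pass, and the time of day of collection is not given in the sources used here. The E-box CACGTG, the motif of the clock activators, was found in 7.15% of all promoters and in 5 of the 46 member promoters (10.9%).

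No steroid hormone receptor found by the rule was measurable on these arrays. Esr1, Esr2, Pgr and Nr3c1, the receptors for estrogens, progesterone and glucocorticoids, were above background on no array with any of their 7 probes, which sets no limit on the transcripts beyond the sensitivity of these probes. Genes of corticosteroid metabolism and response were measured nonetheless. Of 9 tested genes of 11 on the array, 4 rose and 1 fell, beside 14.9% and 13.9% of all tested genes. The median was 0.76, or 0.73 with Scnn1a, which was above background in no hSRY-OFF heart, at its bound. Hsd11b1, which regenerates active glucocorticoid, was at 6.07, 6.10 and 6.71 in hSRY-OFF and 9.47, 9.44 and 8.40 in hSRY-ON hearts and rose by 2.81 (SE 0.31, adjusted p = 0.000953). Fkbp5, a co-chaperone of the glucocorticoid receptor induced by it, rose by 2.14 (adjusted p = 0.00244), Sgk1, a kinase induced by corticosteroids, by 1.21 (adjusted p = 0.00274), and Per1 as above. Fkbp4, the co-chaperone that counteracts Fkbp5, fell from a mean level of 12.46 ± 0.03 to 11.46 ± 0.22 (SD, 3 hearts each; adjusted p = 0.00216). The brightest probe of Tsc22d3 differed by 0.73 (adjusted p = 0.0597), and another of its probes rose by 2.12 (adjusted p = 0.00793). Dusp1 (-0.17, adjusted p = 0.626), Ptges3 (-0.28, adjusted p = 0.613) and Scnn1a (adjusted p = 0.0583) did not pass. Klf15 was above background only on 1 hSRY-OFF array and was not tested.

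Among the orphan receptors, none of 6 tested probes passed. Nr2f6 (EAR2) was below in hSRY-ON hearts on both probes, by -0.37 (SE 0.17, adjusted p = 0.142; 10.61, 10.64 and 10.89 against 10.52, 10.03 and 10.48, with no overlap) and -0.42 (SE 0.18, adjusted p = 0.123). Nr2f2 (COUP-TFII), which specifies atrial and venous identity, differed by 0.22 (SE 0.15, adjusted p = 0.293). Nr2e1 (0.28, SE 0.19), Nr4a2 (0.26, SE 0.23) and Nr6a1 (0.27, SE 0.17) were dim, each above background on 4 or 5 of 6 arrays. The stress-responsive Nr4a1 and Nr4a3 and the receptors Nr0b1, Nr0b2, Nr2c2, Nr2e3 and Nr5a1 were above background on no array, and Nr2c1 and Nr5a2 on 1 array each. The receptor-associated gene Nr2c2ap differed by 0.19 (SE 0.18, adjusted p = 0.487). In all, 16 of the 36 receptor genes had no tested probe, and 13 of these were above background on no array. Counted by probe, 29 of 63 were above background on no array, among them further probes of Nr1d2 and Nr2f2, and 4 more were above background on too few arrays for a test.

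**Figure D2:**
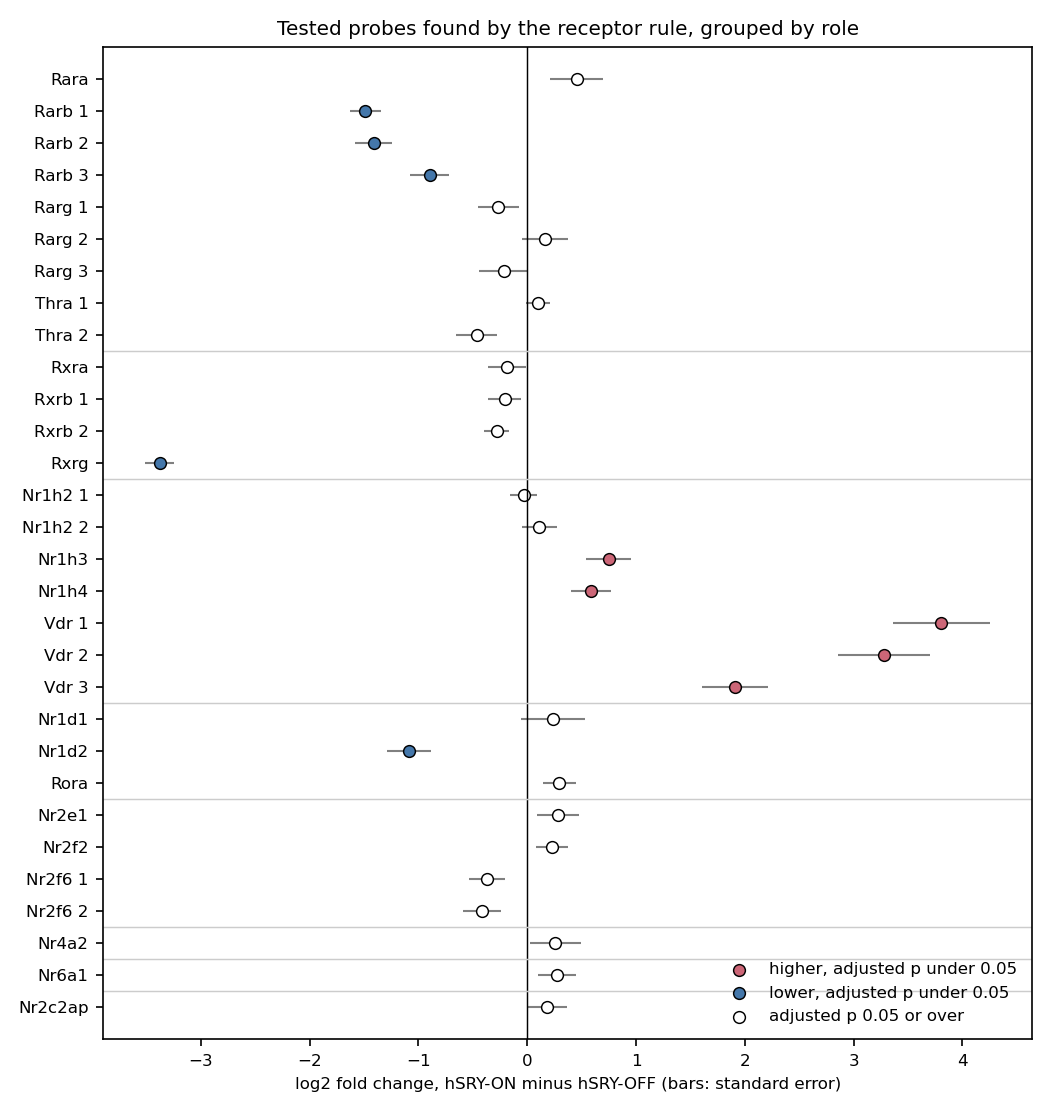
Log2 fold change, hSRY-ON minus hSRY-OFF (x axis), with its standard error, of 30 of the 31 tested probes found by the rule, grouped by role with lines between the roles. The 5 red points rose and the 5 blue points fell at an adjusted p under 0.05, and the open points, which did not pass, lie between -0.47 and 0.46.

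Of the 20 receptor probes that were not called, 19 are described here, and each had a difference under 0.5 in size. None of these 19 was called without hSRY-ON replicate 1 or without hSRY-OFF replicate 3. The lowest adjusted p was 0.0624 in the former case, for Nr2e1 (0.49), and 0.052 in the latter, for the dimmer Thra probe (-0.62). The called one with the smallest difference, Nr1h4, was at 0.59. Genes for the coregulators through which all these receptors work, the coactivators and corepressors, had no called member among 13 tested of 19 on the array, with a median of -0.05. Their differences ran from -0.47 for Med1 to 0.43 for Ncoa6, and the coactivator Ep300 (0.17, SE 0.13) and the corepressor Ncor1 (0.34, SE 0.14, adjusted p = 0.112) were among them. This share of 0 of 13 stands beside 28.8% over all tested genes, and the difference was not tested.

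**Figure D3:**
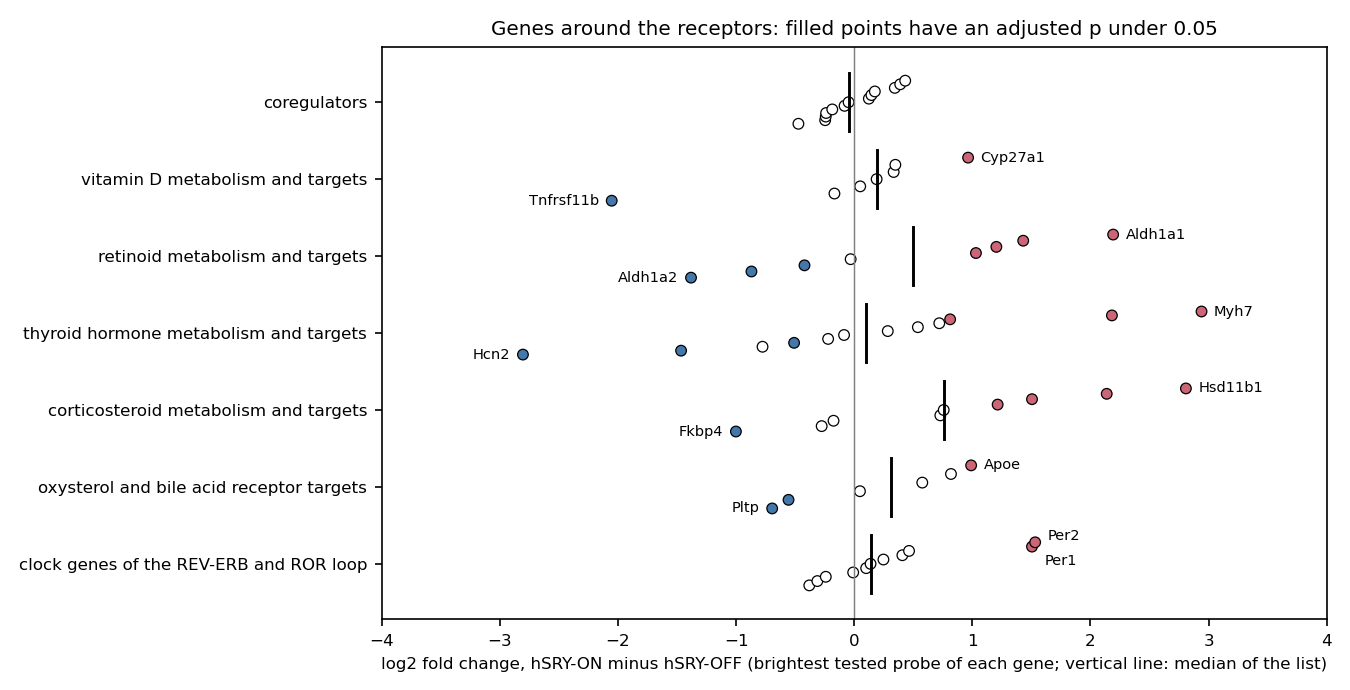
Log2 fold change, hSRY-ON minus hSRY-OFF (x axis), of the brightest tested probe of each gene in 7 lists of genes around the receptors (y axis), with filled points for an adjusted p under 0.05 (red up, blue down) and a vertical line at the median of each list. The retinoid and corticosteroid lists have the highest medians, 0.50 and 0.76, and the coregulator list has no filled point.

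The SRY motif AACAAT, on either strand, was found in 10.7% of all annotated promoters and in 5 of the 46 promoters of member genes (10.9%), and AACAAAG in 5.85% and in 2. Of the 8 promoters of genes with a called probe, only that of Rarb held AACAAT, and none held AACAAAG or CACGTG. Promoters were matched for 33 of the 37 genes, and these windows leave out enhancers and any start site that RefSeq does not list.

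The calls for Vdr, Rarb, Rxrg and Nr1d2, 8 probes in all, were kept under each other setting with all hearts in which the probe was tested and also whichever heart was left out. Among these 8, the Rxrg probe and the dimmest Vdr and Rarb probes passed the filter only through the group where they were higher. The calls for Nr1h3 and Nr1h4 were not kept, as given above.

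**Figure D4:**
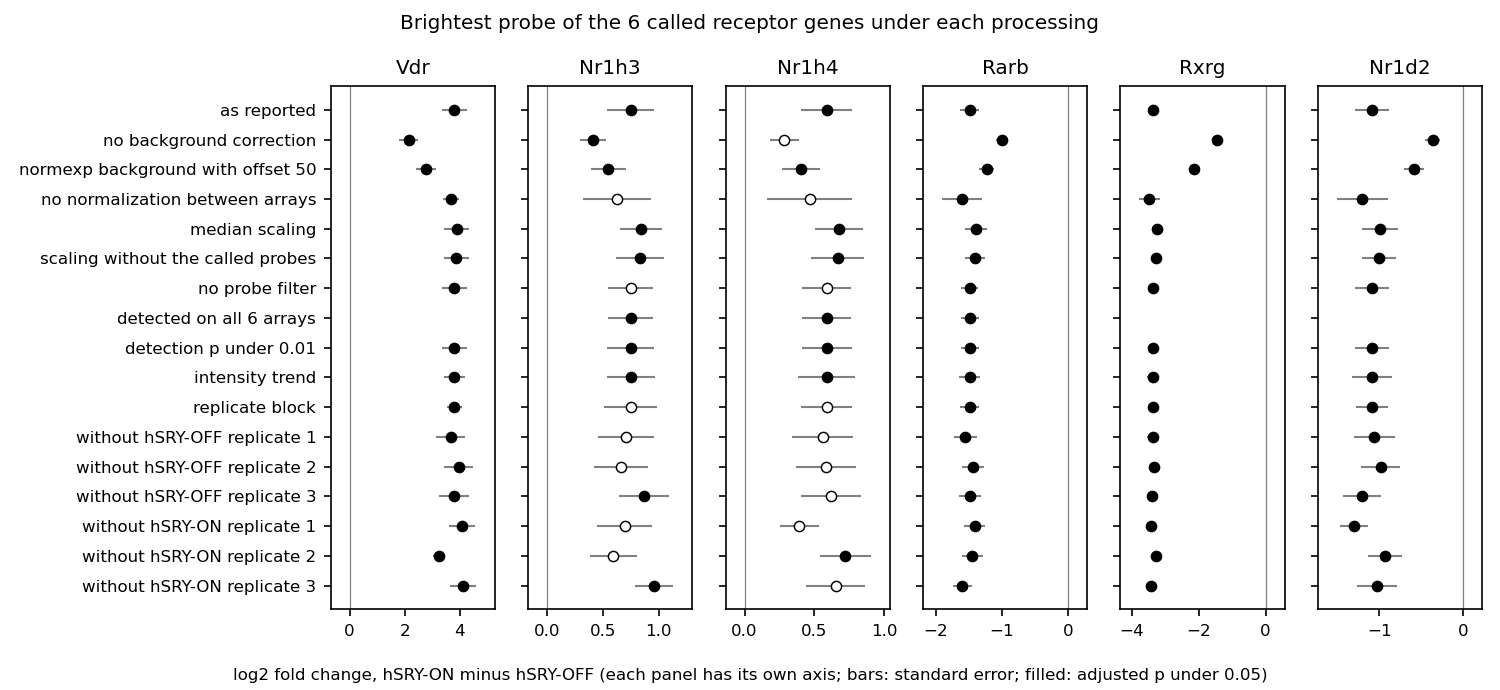
Log2 fold change, hSRY-ON minus hSRY-OFF (x axes, one scale per panel), with its standard error, of the brightest tested probe of the 6 receptor genes with a call under each processing (y axis). Filled points have an adjusted p under 0.05, a missing point is a probe not tested under that setting, and Nr1h3 and Nr1h4 change between filled and open while Vdr, Rarb, Rxrg and Nr1d2 stay filled.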

How the data were processed

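Total heart RNA (TRIZOL) was hybridized by the authors to Illumina MouseRef-8 v2.0 BeadChips. The deposited table holds, per probe and array, a non-normalized average bead intensity and a detection p-value, both as the authors deposited them. The methods name the R package TCC for the authors' comparison and the submitters' processing notes name limma, with no settings given in the sources used here.

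From these, background was corrected and arrays were quantile normalized on the log2 scale with neqc of limma 3.58.1 (R 4.3.3; background from the detection p-values, offset 16). Probes with a detection p under 0.05 on at least 3 of 6 arrays were tested, hSRY-ON against hSRY-OFF, with lmFit and eBayes (two-sided, 3 hearts per group from the sample titles), adjusted by Benjamini-Hochberg over all 12970 tested probes and called at an adjusted p under 0.05. The groups are biological triplicates by the methods. Intensities have no counted depth, so precision rests on how many arrays there are, and an exact permutation test of 3 against 3 hearts cannot go below p = 0.1. The fit was tested on simulated data with known changes.

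Members and gene lists were chosen with earlier results of these data known. Named were all receptors of the rule, for each list the called gene with the largest increase and decrease, and the called vitamin D, retinoid and thyroid genes. Further list genes were named after their values were seen. A list was counted over the brightest tested probe of each gene. Motifs were searched with Python 3.11.15 in RefSeq promoters of GRCm38.p6. Alternatives were other background corrections and scalings, other probe filters, an intensity trend, a replicate block and leaving out each heart. Same-numbered hearts did not deviate together, so no pairing was used. The values of 1 receptor gene and of 1 retinoid list gene are not reported here, though both stay in the counts.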

Additional observations from a re-analysis of the deposited data

How the results depend on the processing

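Over all tested probes, 3567 were called. The count was 1897 with no normalization between arrays, where 38.5% of calls were increases against 50.1% as reported, and it ranged from 2239 to 3714 with each heart left out, lowest without hSRY-OFF replicate 1. Increases made up 65.7% of calls with median scaling and 60.9% with scaling on uncalled probes. These scalings put the median over all tested probes (log2) at 0.0949 and 0.0832, and no normalization at -0.117. Of the 10 called receptor probes, 4 were called among probes detected on all 6 arrays (2 up and 2 down), since Vdr, Rxrg, Nr1d2 and the dimmest Rarb probe were not tested there. Receptor probes called up numbered 3 rather than 5 with no normalization, with no probe filter and with a replicate block, and 3 to 4 with each heart left out (3 when the heart left out was hSRY-OFF replicate 1, hSRY-OFF replicate 2 or hSRY-ON replicate 1). Called list genes numbered 24 as reported and 20 to 29 under the other settings.

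No called receptor probe changed sign. Of the 21 uncalled member probes, 5 did. Nr1d1 ranged from -0.0295 without hSRY-ON replicate 3 to 0.57 without hSRY-ON replicate 1. The brighter Nr1h2 probe was at 0.0831 with median scaling and 0.0714 with scaling on uncalled probes, and ranged from -0.0904 without hSRY-OFF replicate 1 to 0.0296 without hSRY-OFF replicate 3. The dimmer one ranged from -0.0105 without hSRY-OFF replicate 1 to 0.24 without hSRY-OFF replicate 3. The middle Rarg probe ranged from -0.0553 without hSRY-OFF replicate 3 to 0.35 without hSRY-OFF replicate 2, and the dimmest from -0.36 without hSRY-OFF replicate 2 to 0.0554 without hSRY-OFF replicate 3. The cause was not tested.

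The replicate numbers did not pair the hearts: the deviations of same-numbered hearts from their group means correlated at -0.0248, 0.0375 and -0.0655. With the replicate number as a block, 2842 probes were called. Nr1h3 (adjusted p = 0.0829), Nr1h4 (adjusted p = 0.0753), Hr (adjusted p = 0.0645), Myh6 (adjusted p = 0.053), Pltp (adjusted p = 0.05) and Retsat (adjusted p = 0.0656) lost their call under the block. Retsat, Hr and Myh6 also lost it with no normalization, Retsat under both scalings as well, and Hr with no probe filter. Srebf1 lost its call with no background correction (-0.15), with normexp (-0.27), with no normalization, under both scalings and with an intensity trend, and Fabp5 with no background correction (-0.26). Without background correction the differences of Vdr, Rxrg, Nr1d2, Nr1h3, Nr1h4 and the dimmer Rarb probes shrank by over 1.5 times, and those of Tnfrsf11b, Aldh1a1, Aldh1a2, Ttr, Hcn2, Hsd11b1 and Pltp became -0.99, 0.79, -0.81, 0.83, -1.32, 1.68 and -0.36, with these 7 list genes still called and Nr1h4 not. With no probe filter, Nr5a2 was called down.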
